A study of Mus musculus with 15 samples.

Results

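The cytosolic ribosomal protein genes were followed in mouse bone macrophages that lacked VLDLR, lacked ROBO4 or were wild type. They were chosen by name alone. Of 16886 genes in the gene table, 82 had a symbol of Rpl or Rps followed by a number, or were Rplp0, Rplp1, Rplp2 or Rpsa, after leaving out pseudogene symbols and the Rps6k kinase genes. Of these, 50 encode proteins of the large subunit (Rpl) and 32 proteins of the small subunit (Rps). The study sequenced 5 VLDLR_KO libraries from VLDLR-/- mice, 5 ROBO4_KO libraries from ROBO4-/- mice and 5 WT libraries, all with the strain label C57BL6J. Bone macrophages of every genotype had been kept in vitro with 20 ng/ml of M-CSF, the growth factor that drives macrophage survival and division, for 14 days. The age and sex of the mice, the way each knockout was made and whether each library came from its own animal are not given in the sources used here, so p-values measure the spread between these libraries.

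A ribosome joins a large and a small subunit, each built of ribosomal RNA and of one copy of most of its proteins, and cells make these proteins in step. In vertebrates the mRNAs of these genes begin with a C and a run of pyrimidines, the TOP sequence, through which their translation follows nutrient and mTOR signals. The genes are also known for the many processed copies, most of them pseudogenes, that lie elsewhere in the genome and can draw reads away from the gene they came from. VLDLR is a receptor of the lipoprotein receptor family, and ROBO4 is a receptor best known from endothelium.

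Every library carries a code with a digit either before or after the letter B, and this form was kept as a term in the model because it divides each genotype. The digit stood before B in VLDLR_KO replicates 1 and 2, ROBO4_KO replicates 1 and 2 and WT replicates 3 to 5, and after B in the other 8 libraries. What the form stands for is not given in the sources used here. Library totals ran from 18132866 to 19005966 counts. Vldlr had 1 to 38 counts per library and Robo4 0 to 4, too few in all 3 genotypes to check the labels, and the deposited counts do not say which part of either gene was deleted. All 14 listed macrophage markers were detected, and their summed level was 24070 to 44490 CPM (counts scaled to the TMM library size) in VLDLR_KO, 18280 to 22140 CPM in ROBO4_KO and 16090 to 24440 CPM in WT. All 7 B cell and all 5 T and NK cell markers in the table averaged under 1 CPM, as did 9 of 11 neutrophil markers and 9 of 10 erythroid and megakaryocyte markers. Endothelial Vwf averaged 136 CPM and Kdr 25.2 CPM, but Cdh5 and Pecam1 averaged under 1 CPM, and the summed fibroblast and stroma markers ran from 10.9 to 348 CPM in VLDLR_KO, 50.3 to 588 CPM in ROBO4_KO and 95.2 to 761 CPM in WT.

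Sequences around the RefSeq starts of 8 of the genes are shown first, because the results turn on these genes and because the start is where a TOP sequence would lie. Each run holds 25 bases before the annotated start and 25 bases from it on, 5′ to 3′ on the gene's own strand (RefSeq, GRCm38.p6), and the capitals mark the first 5 bases of the annotated transcript. Rps6 and Rpl13a are called between genotypes below, Rpl36al is called both between genotypes and between code forms, Rpl10, Rps21, Rps27 and Rps28 are called between forms, and Rps27rt is a copy of Rps27.
Rps6, chr4:86857343-86857392, minus strand: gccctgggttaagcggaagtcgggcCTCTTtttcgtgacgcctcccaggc
Rpl13a, chr7:45128721-45128770, minus strand: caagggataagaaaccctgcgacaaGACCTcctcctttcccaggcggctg
Rpl36al, chr12:69184043-69184092, minus strand: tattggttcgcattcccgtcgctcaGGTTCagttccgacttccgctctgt
Rpl10, chrX:74270791-74270840, plus strand: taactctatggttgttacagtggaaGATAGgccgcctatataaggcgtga
Rps21, chr2:180257354-180257403, plus strand: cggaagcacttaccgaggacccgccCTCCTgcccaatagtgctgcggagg
Rps28, chr17:33824538-33824587, minus strand: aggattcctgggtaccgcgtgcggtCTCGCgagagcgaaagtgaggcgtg
Rps27, chr3:90213624-90213673, minus strand: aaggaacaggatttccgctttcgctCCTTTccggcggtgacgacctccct
Rps27rt, chr9:114982715-114982764, minus strand: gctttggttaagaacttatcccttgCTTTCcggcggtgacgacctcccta
The first 5 letters were a C followed by 4 pyrimidines (each C or T, read on the gene's strand only) for Rps6, Rps21, Rps27 and Rps27rt. Rps21 also had an annotated start without this match, and the window shown was chosen because it matched. Over the 62 genes of the 82 that had a window in the RefSeq table, 14 (22.6%) had such a start at 1 or more annotated starts, against 813 of 27025 genes (3.01%) in the whole table. A RefSeq start can lie some bases from the start that cells use, so a missing match describes the annotation only. Rps27 and Rps27rt shared a run of 38 bases, which began at the annotated start of Rps27rt and 1 base after that of Rps27.

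The ribosomal protein genes were among the most highly expressed genes of these macrophages. Levels between genes are given as FPKM, counts scaled for gene length and library size, as the authors deposited them. The 79 genes with enough counts to test had a median level of 731 FPKM over the 15 libraries, against 10.54 FPKM over all 11668 tested genes, and 35 of the 100 genes of highest level were ribosomal protein genes. A level over 1000 FPKM was reached by 19 genes, 38 lay between 500 and 1000 FPKM, 18 between 100 and 500 FPKM and 4 under 100 FPKM.

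At the top stood Rpl10, a large-subunit protein near the peptidyl transferase site, with a mean of 2200 FPKM and a range of 1378 to 3720 FPKM over the 15 libraries. Rplp1, an acidic protein of the stalk that recruits elongation factors, followed at 2052 FPKM (1555 to 4118), and Rpl26, a large-subunit protein, at 1616 FPKM (1253 to 2413). These ranges overlapped, so the order of the 3 genes was not fixed in every library. The other stalk proteins had lower levels, 981 FPKM for Rplp0, which forms the base of the stalk, and 763 FPKM for Rplp2. Rpsa, a small-subunit protein that has also been described as a laminin receptor, had 631 FPKM.

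The genes at the foot of the order were copies, genes with a copy, or genes with a long annotated model. The lowest level among the tested genes was that of Rpl37rt, a retrocopy of Rpl37 with the same UniProt entry, at 21.8 FPKM (14.2 to 30.5). Rps6, the small-subunit protein phosphorylated by S6 kinases, had 23.4 FPKM (4.63 to 35.3), with a gap between the genotypes that is described below. Rps15a had 52.0 FPKM and Rps20 had 60.0 FPKM, but the length implied by their counts and FPKM was 4968 and 3279 bases, against a median of 540 bases over the tested ribosomal protein genes. Rpl22 had 111.5 FPKM over an implied 2006 bases. Rps27l, a copy of Rps27 known as a p53 target, had 110 FPKM, and Rps27 itself 1508 FPKM. Rpl36al, a retrocopy of Rpl36a, had 237 FPKM against 583 FPKM for Rpl36a. The 3 genes too low to test were Rps27rt at 1.25 FPKM, Rpl39l, a copy of Rpl39 best known from testis, at 0.534 FPKM, and Rpl3l, the muscle copy of Rpl3, at 0.036 FPKM. Their parent genes had 1508 FPKM (Rps27), 552 FPKM (Rpl39) and 622 FPKM (Rpl3).

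**Figure D1:**
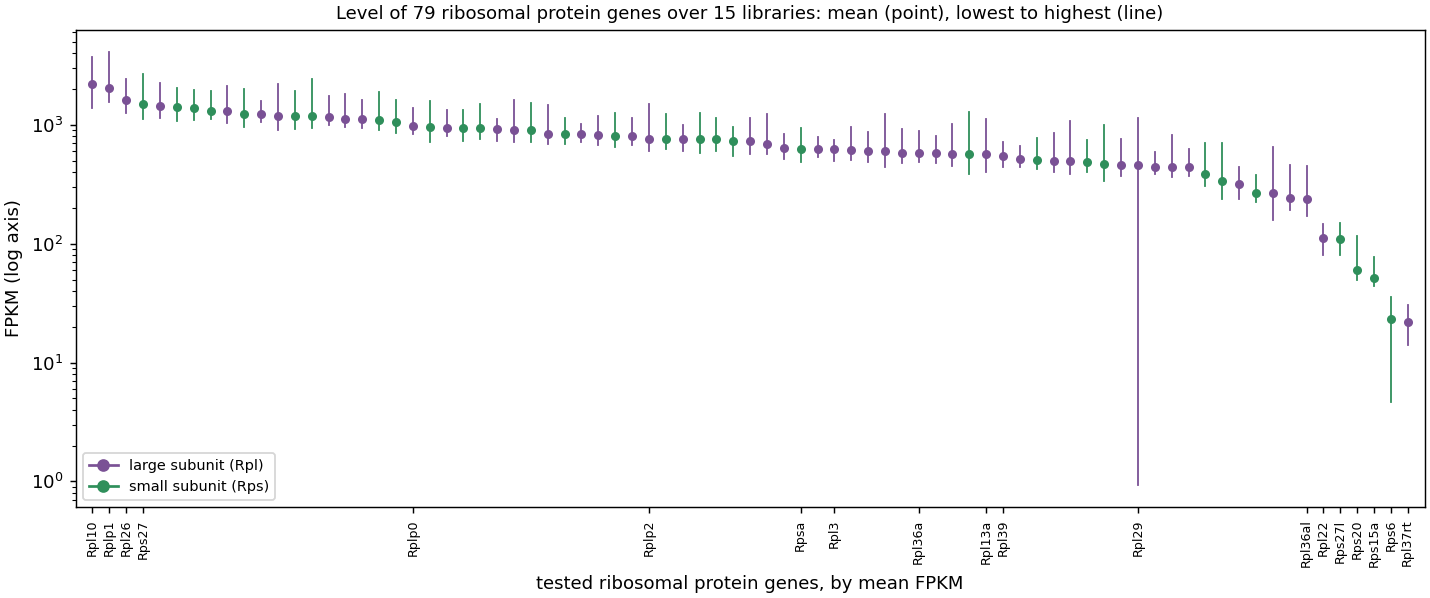
Mean FPKM over 15 libraries (points, log axis) of the 79 tested ribosomal protein genes in falling order, with lines from the lowest to the highest library names of genes described in the text under the axis, and colours for the large (Rpl) and small (Rps) subunit. Most genes lie between 500 and 2200 FPKM, and Rpl29 and Rps6 have lines that reach far below their means.

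Together the 82 genes took a similar share of the counts in all libraries but 2. The share was 3.26, 5.35, 3.06, 2.83 and 3.28% in VLDLR_KO replicates 1 to 5, with a mean of 3.56 ± 1.02% (SD, n = 5). In ROBO4_KO it was 3.05, 3.21, 3.01, 3.25 and 3.25%, a mean of 3.15 ± 0.115% (SD, n = 5), and in WT 3.16, 2.90, 3.33, 3.40 and 4.04%, a mean of 3.37 ± 0.423% (SD, n = 5). VLDLR_KO replicate 2 stood above all other libraries, WT replicate 5 came next, and the other 13 libraries lay between 2.83 and 3.40%. Without replicate 2 the VLDLR_KO mean was 3.11 ± 0.21% (SD, n = 4), and the range was 2.83 to 3.28%, with 1 library below the WT range. The 95% Wilson interval of each share reached at most 0.01 percentage points to either side and covers counting error only. In bulk RNA, fewer cells of a type and less RNA per cell cannot be told apart, and this holds for every level below.

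VLDLR_KO replicate 2 was the highest library for 76 of the 79 tested genes. Their log2 CPM in it lay above the mean of the 15 libraries by a median of 0.821. This shift moved with gene length. The median was 0.928 over the 27 genes of up to 400 bases, 0.811 over the 35 genes above that and up to 800 bases and 0.667 over the 17 longer genes. In the same library, 470 other genes of a like length (352 to 767 bases) lay 0.693 above their mean, and the other genes with the longest models (4122 bases and up) lay 0.462 below theirs (a median of -0.462). WT replicate 5 showed the same pattern in smaller measure, with medians of 0.295 for the ribosomal protein genes and 0.17 for the other genes of like length. The part of length or of RNA quality in these shifts was not tested. The calls of ribosomal protein genes below are given with and without VLDLR_KO replicate 2. The counts of transcripts and of groups that do not overlap are given with all libraries.

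**Figure D2:**
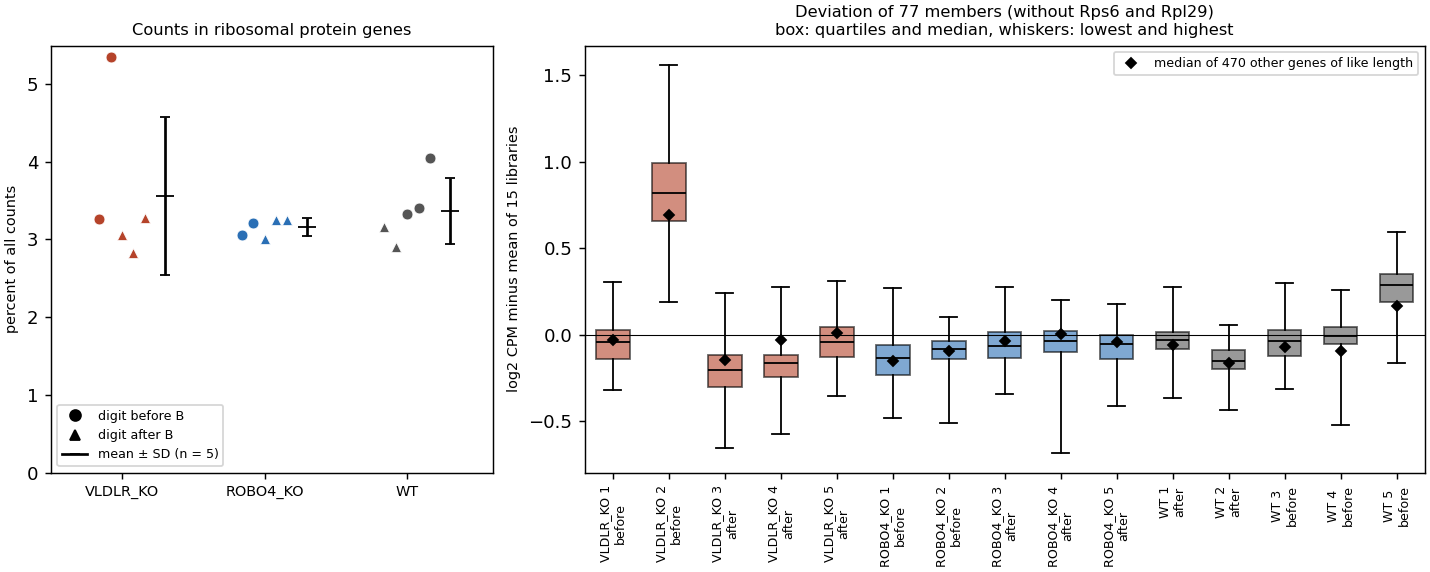
Left, percent of all counts in the 82 ribosomal protein genes per library (circles, digit before B, triangles, digit after B, bars, mean ± SD, n = 5). Right, log2 CPM of 77 tested genes (all but Rps6 and Rpl29) minus each gene's mean of 15 libraries, as boxes per library, with diamonds for the median of 470 other genes of like length. VLDLR_KO replicate 2 (5.35%, median 0.821) and WT replicate 5 (4.04%, median 0.295) lie above the rest in both panels.

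Over all 15 libraries, the standard deviation of log2 CPM had a median of 0.268 over the 79 genes, against 0.275 over all tested genes. The steadiest were Rpl4 at 0.142, Rpl3 at 0.143 and Rpl7a at 0.152, all large-subunit proteins with long coding regions for this family. The most variable were Rpl29 at 4.08 and Rps6 at 1.18, far above the next, Rpl36, at 0.522.

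To compare VLDLR_KO with WT macrophages, the model with genotype and code form was fitted over all genes by edgeR's quasi-likelihood test, and a gene was called at a Benjamini-Hochberg adjusted p under 0.05. Of 79 ribosomal protein genes, 2 were called higher in VLDLR_KO (Rps27l and Rpl36al) and 1 lower (Rps6), 3.8% of them, where 16.8% of all tested genes were called (7.74% higher and 9.03% lower). The median log2 fold change was 0.141 over the 79 genes and 0.019 over all tested genes, and 65 of the 79 were above 0. Without VLDLR_KO replicate 2 the median was -0.097 and 16 of 80 were above 0, so the direction of the median rested on that library. Without WT replicate 5 as well, the median was -0.038 and 26 of 80 were above 0. Within code forms the median was 0.39 for the libraries with the digit before B, where replicate 2 is 1 of the pair of VLDLR_KO libraries, and -0.06 for those with the digit after B.

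Rps27l (chr9:66946076-66949522) had 38.0, 59.6, 44.6, 41.4 and 45.1 CPM in VLDLR_KO replicates 1 to 5, against 29.8, 30.8, 35.4, 27.6 and 42.0 CPM in WT. The groups overlapped through VLDLR_KO replicates 1 and 4 and WT replicate 5, and the ROBO4_KO libraries lay between 36.0 and 41.4 CPM. The log2 fold change of VLDLR_KO over WT was 0.49 (SE 0.13, edgeR adjusted p = 0.0173), with 0.35 without VLDLR_KO replicate 2 (adjusted p = 0.0484). Within forms it was 0.49 before B (adjusted p = 0.159) and 0.53 after B (adjusted p = 0.00476). The call was also lost without WT replicate 1 (0.46, edgeR adjusted p = 0.0517).

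Rpl36al (chr12:69182734-69184067) had 94.8, 178, 85.8, 72.2 and 84.6 CPM in VLDLR_KO, against 69.1, 61.6, 74.9, 81.0 and 89.0 CPM in WT. Replicate 2 was about as far above the other VLDLR_KO libraries for its parent Rpl36a, which had 183, 328, 169, 164 and 178 CPM in VLDLR_KO against 185, 167, 164, 189 and 233 CPM in WT. The fold change of Rpl36al was 0.51 (SE 0.15, edgeR adjusted p = 0.0272) and 0.27 without replicate 2 (adjusted p = 0.0219). It did not pass within either form, with 0.75 before B (adjusted p = 0.0635) and 0.31 after B (adjusted p = 0.0686), or without WT replicate 2, 3 or 4 (adjusted p = 0.0597, 0.0660 and 0.0597), or with no form term (0.46, adjusted p = 0.179). Rpl36a and Rpl36al carry the same UniProt entry in the deposited table, and their summed counts gave 0.26 (SE 0.15, adjusted p = 0.249).

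Leaving out VLDLR_KO replicate 2 brought up 7 further genes, all lower in VLDLR_KO: Rpl10a, Rpl21, Rpl22, Rpl23, Rpl24, Rps7 and Rps9. Then 10 of 80 ribosomal protein genes were called, 2 higher and 8 lower, with 18.1% of all tested genes called. Rpl22, a large-subunit protein known from mouse lymphocyte development, fell the furthest of the 7, by 0.385 on the log2 scale (SE 0.086, edgeR adjusted p = 0.00757). It had 183, 298, 185, 167 and 182 CPM in VLDLR_KO, against 223, 215, 221, 245 and 289 CPM in WT, so all VLDLR_KO libraries but replicate 2 lay below every WT library. Rpl21 had 476, 812, 454, 417 and 441 CPM in VLDLR_KO, against 563, 520, 509, 550 and 675 CPM in WT, with the same split. Its fold change without replicate 2 was -0.33 (SE 0.091, edgeR adjusted p = 0.0234). Rpl10a had 341, 617, 357, 381 and 412 CPM in VLDLR_KO, against 470, 436, 412, 426 and 452 CPM in WT, and without replicate 2 it fell by 0.294 (SE 0.068, adjusted p = 0.00926). Rpl21, Rpl22 and Rpl23 were also called lower among the libraries with the digit after B alone. In that fit 5 of 80 were called, where 15.7% of all tested genes were. With all 15 libraries the fold changes of the 7 genes ran from -0.20 (Rpl22) to 0.033 (Rps9) and none was called, so these falls rest on leaving that library out. Rpl23 shares its UniProt entry with 2 copies, LOC100044627 and LOC100862455, and held 79.7 to 88.5% of their joint counts in each library. With all 15 libraries their sum gave -0.053 (SE 0.138, edgeR adjusted p = 0.823). It was not fitted without replicate 2.

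Rps6 had the largest fold change of the 79 genes in VLDLR_KO against WT. It had 6.69, 10.2, 6.63, 5.85 and 6.56 CPM in VLDLR_KO, 42.5, 35.0, 40.6, 41.3 and 41.6 CPM in ROBO4_KO and 39.2, 35.0, 38.6, 41.1 and 38.3 CPM in WT. No VLDLR_KO library came near the other groups, and ROBO4_KO and WT overlapped. The log2 fold change was -2.40 for VLDLR_KO over WT (SE 0.12, edgeR adjusted p = 6.5e-09) and -2.50 for VLDLR_KO over ROBO4_KO (SE 0.12, adjusted p = 4.0e-09). It was the only one of the 79 genes whose VLDLR_KO and WT libraries did not overlap, a split that 9.43% of all tested genes showed.

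The Rps6 reads, however, were divided between the gene and a copy. LOC105244208, which RefSeq names Rps6-ps4 and lists as a transcribed pseudogene (chr2:75191038-75191850), carries the UniProt entry of Rps6 in the deposited table. It held 11546 to 16346 counts in VLDLR_KO, 12495 to 14821 in ROBO4_KO and 11970 to 14659 in WT, where Rps6 itself (chr4:86854099-86857367) held 105 to 171, 676 to 812 and 614 to 777 counts. The share of the pair that was assigned to Rps6 was 1.06, 1.03, 0.936, 0.856 and 0.901% in VLDLR_KO. In ROBO4_KO it was 6.01, 4.90, 5.31, 5.31 and 5.19%, and in WT 5.20, 4.88, 5.38, 5.28 and 4.68%. Wilson intervals of these shares reached at most 0.4 percentage points to either side. The sum of both was 747 ± 136 CPM in VLDLR_KO, 753 ± 40.3 CPM in ROBO4_KO and 758 ± 43.3 CPM in WT (SD, n = 5 each). The fold change of the sum was -0.012 for VLDLR_KO over WT (SE 0.104, adjusted p = 0.951) and -0.013 for VLDLR_KO over ROBO4_KO (SE 0.103, adjusted p = 0.947). A smaller share of the pair was thus assigned to Rps6 in VLDLR_KO, and a difference in their total was not detected. The FPKM of Rps6 given above covers only the part of the pair that was assigned to it.

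**Figure D3:**
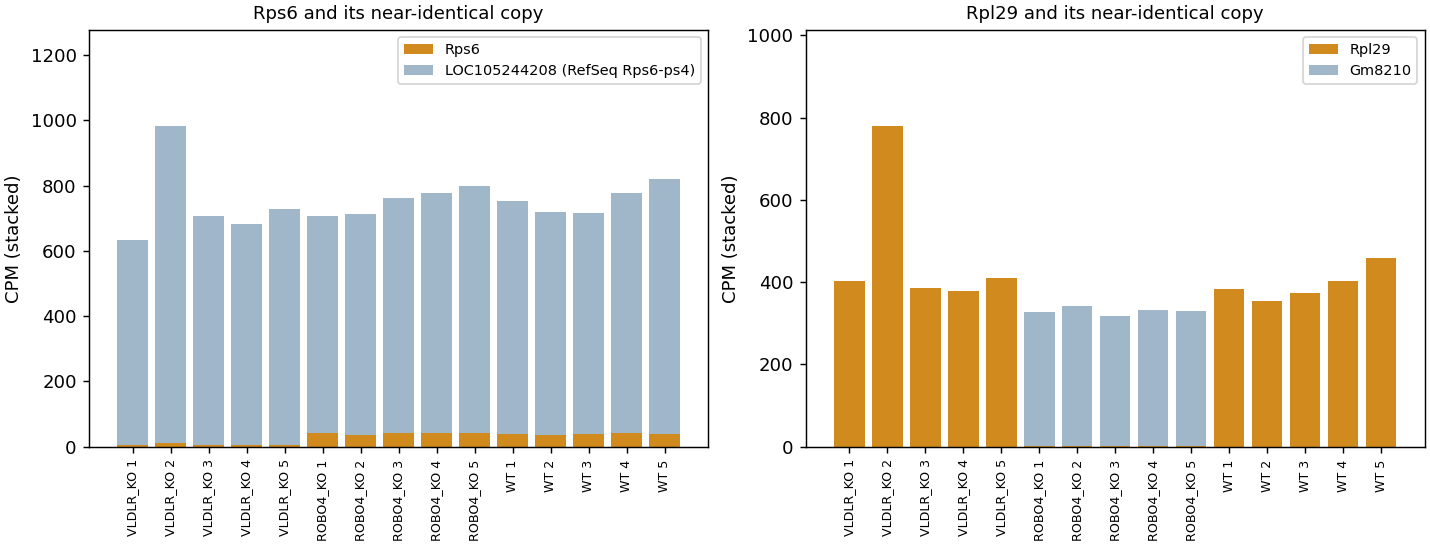
CPM assigned to Rps6 (orange) and to LOC105244208 (blue), left, and to Rpl29 (orange) and Gm8210 (blue), right, stacked for each of 15 libraries. Rps6 is a thin band of 5.85 to 10.2 CPM in VLDLR_KO and 35.0 to 42.5 CPM elsewhere under totals of 634 to 982 CPM in VLDLR_KO, and the ROBO4_KO bars of the right panel are almost wholly Gm8210.

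To compare ROBO4_KO with WT macrophages, the same fit was used. Of the 79 genes, Rpl29 alone was called, lower in ROBO4_KO, where 0.643% of all tested genes were called (0.343% higher and 0.3% lower). The median log2 fold change was -0.045 over the 79 genes and 0.005 over all tested genes, and 22 of the 79 were above 0. Leaving out 1 WT or ROBO4_KO library gave medians from -0.073 (without ROBO4_KO replicate 4) to 0.027 (without ROBO4_KO replicate 1). Without ROBO4_KO replicate 2 the median was 0.012, so its direction rested on single libraries. Within code forms the median was -0.192 before B, the form that holds WT replicate 5, and 0.02 after B. An unadjusted p under 0.05 was reached by Rpl29 alone of the 79, and by 715 of all 11668 tested genes.

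Rpl29 (chr9:106421463-106431568), a large-subunit protein, had 402, 779, 385, 378 and 409 CPM in VLDLR_KO, 0.684, 0.685, 0.672, 1.04 and 0.943 CPM in ROBO4_KO and 384, 354, 373, 402 and 458 CPM in WT. In counts the ROBO4_KO libraries held 12.1 to 19.9 and the WT libraries 6208 to 8592. The gene was thus near 0 in all 5 ROBO4_KO libraries, with a log2 fold change over WT of -8.87 (SE 0.25, edgeR adjusted p = 8.3e-12). Both of its main transcripts were lower in ROBO4_KO: the one with 88.1% of the gene's counts had a fold change of -9.13 (edgeR adjusted p = 7.1e-09 over 30096 transcripts) and the one with 11.5% a fold change of -11.48 (adjusted p = 7.1e-09). These were the 2 of 125 transcripts of the family called in this comparison, in which 0.11% of all tested transcripts were called.

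The counts of a copy were high where those of Rpl29 were near 0. Gm8210, a pseudogene on another chromosome (chr1:43189057-43189765) with the UniProt entry of Rpl29, held 6125, 6570, 5687, 6366 and 6419 counts in ROBO4_KO, against 0 to 3.7 counts in the libraries of both other genotypes. Rpl29 took 0.20 to 0.312% of the counts of the pair in ROBO4_KO and at least 99.9% in VLDLR_KO and WT. The sum of the pair was 471 ± 173 CPM in VLDLR_KO, 329 ± 8.89 CPM in ROBO4_KO and 394 ± 39.5 CPM in WT (SD, n = 5 each). Each ROBO4_KO library (317 to 341 CPM) lay below each WT library (354 to 458 CPM), but the fold change of the sum, -0.20 (SE 0.15), did not pass (edgeR adjusted p = 1). Robo4 lies on the same chromosome as Rpl29, at chr9:37401897-37414023, and Vldlr on chr19:27201320-27254231, a chromosome other than that of Rps6.

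Rpl13a (chr7:45125563-45128745), a large-subunit protein known in human monocytes for a role in silencing inflammatory mRNAs, was the other gene whose ROBO4_KO and WT libraries did not overlap. It had 339, 353, 402, 419 and 402 CPM in ROBO4_KO, against 510, 494, 446, 470 and 583 CPM in WT. The fold change was -0.35 (SE 0.20, edgeR adjusted p = 1), and -0.40 without VLDLR_KO replicate 2 (SE 0.082, adjusted p = 0.0300), a fit in which Rpl29 was called as well. Groups that did not overlap were seen for 2 of the 79 genes (2.53%) and for 2.19% of all tested genes.

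VLDLR_KO was then compared with ROBO4_KO; the comparison shares its libraries with the 2 above. Of the 79 genes, 3 were called higher in VLDLR_KO (Rpl29, Rpl36al and Rpl13a) and 1 lower (Rps6), 5.06% of them, where 16% of all tested genes were called (7.57% higher and 8.44% lower). The median log2 fold change was 0.19 over the 79 genes and 0.019 over all tested genes, with 0.596 before B and -0.076 after B, and -0.024 without VLDLR_KO replicate 2. Rpl13a had 492, 1063, 468, 444 and 515 CPM in VLDLR_KO, all above the ROBO4_KO range of 339 to 419 CPM. Its fold change was 0.61 (SE 0.20, edgeR adjusted p = 0.0496), close to the threshold, 0.32 without replicate 2 (SE 0.085, adjusted p = 0.0199), and 1.18 before B (adjusted p = 0.0557) and 0.22 after B (adjusted p = 0.0728). Rpl36al had a fold change of 0.48 (SE 0.15, adjusted p = 0.0388), with 0.27 without replicate 2 (adjusted p = 0.0176), and did not pass within either form or without VLDLR_KO replicate 3 (adjusted p = 0.0552). The groups did not overlap for 4 of the 79 genes (5.06%) and for 8.41% of all tested genes. Of the 125 transcripts of the family, 3 were called higher and 1 lower, where 3.27% of all tested transcripts were called. For Rpl29 the fold change was 9.16 (SE 0.25, adjusted p = 2.8e-12), and for its sum with Gm8210 0.49 (SE 0.15, adjusted p = 0.0394). Without VLDLR_KO replicate 2, Rpl10a and Rpl22 were called as well, both on the lower side. Only the calls of Rpl29 and Rps6 (2 genes) were left without VLDLR_KO replicate 5, WT replicate 4 or any one of ROBO4_KO replicates 1, 2, 3 and 5. Leaving out any WT library, any ROBO4_KO library or VLDLR_KO replicate 5 also ended the call of Rpl13a (adjusted p of 0.0595 to 0.137), as did the fit with no form term (adjusted p = 0.0723).

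**Figure D4:**
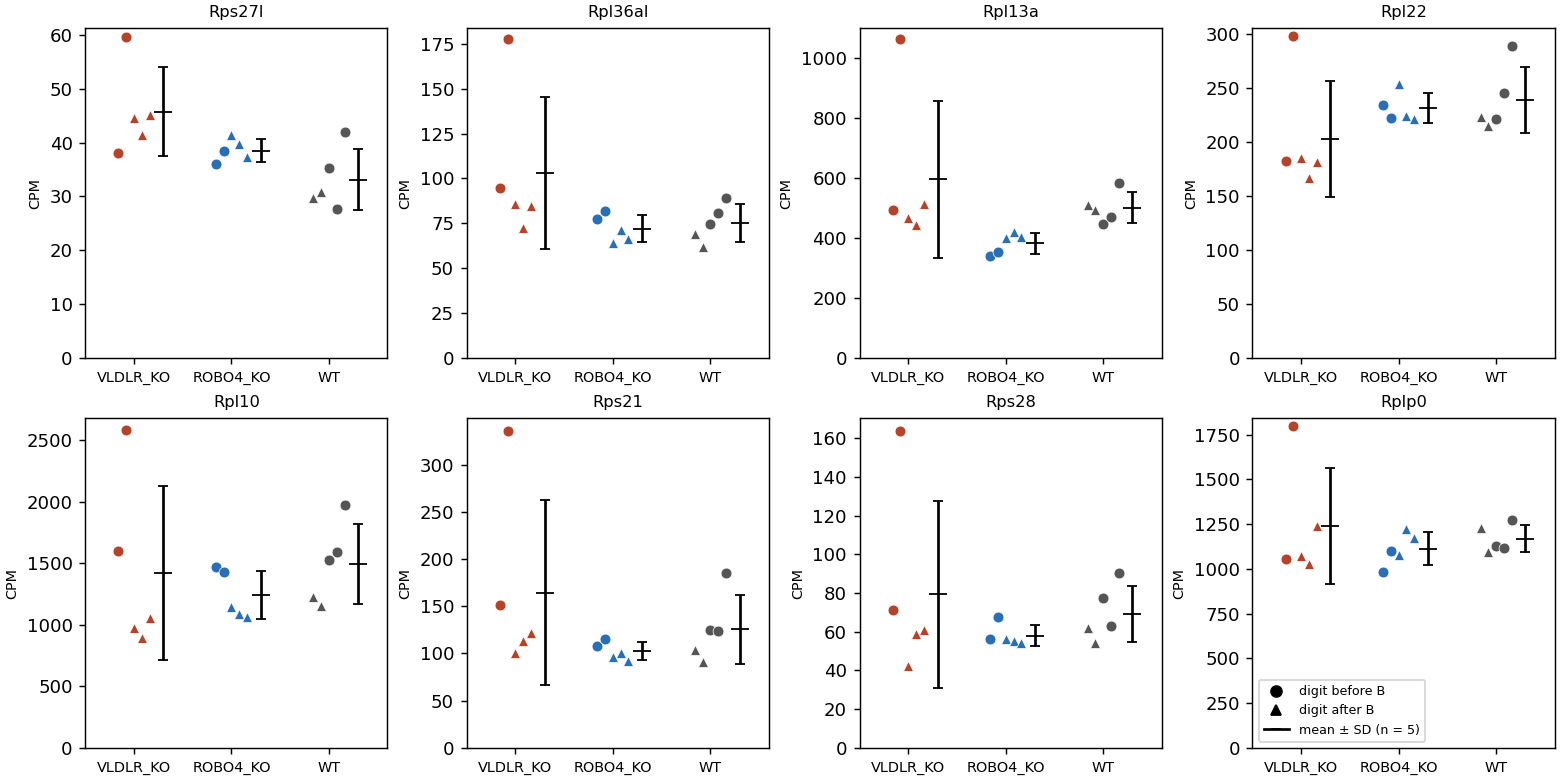
CPM of 8 ribosomal protein genes in each library by genotype (circles, digit before B, triangles, digit after B, bars, mean ± SD, n = 5). VLDLR_KO replicate 2 is the highest point of every panel, from 59.6 CPM for Rps27l to 2587 CPM for Rpl10, and Rpl13a is lower in all 5 ROBO4_KO libraries (339 to 419 CPM) than in any other library.

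The stalk proteins and Rpsa did not pass in any of these comparisons. Rplp0, often used as a reference gene, averaged 1237 ± 324 CPM in VLDLR_KO, 1112 ± 92.6 CPM in ROBO4_KO and 1169 ± 76.7 CPM in WT (SD, n = 5 each). Its fold changes were 0.093 for VLDLR_KO over WT and -0.054 for ROBO4_KO over WT, both smaller than their standard errors of 0.137 and 0.138. Rplp1 had fold changes of 0.37 (SE 0.20) and 0.065 (SE 0.20), Rplp2 0.28 (SE 0.22) and -0.020 (SE 0.23), and Rpsa 0.35 (SE 0.16) and 0.053 (SE 0.16) in the same 2 comparisons. The standard errors of 0.14 to 0.23 leave differences of that size undetected. Rpl36, a large-subunit protein, had the highest fold change of VLDLR_KO over WT, 0.68 (SE 0.28, edgeR adjusted p = 0.105). Its CPM was 73.6, 181, 46.9, 73.8 and 70.0 in VLDLR_KO against 58.9, 55.1, 60.2, 42.3 and 63.2 in WT, with replicate 2 far above every other library.

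More ribosomal protein genes were called between code forms than between genotypes. Comparing libraries with the digit before B to those with the digit after it, 13 of 79 genes were called, all higher before B, among them Rpl10, Rps21, Rps28, Rps27, Rpl36al, Rps9, Rpl31, Rps24, Rps25, Rpl23 and Rps7. That is 16.5% of them, where 38.1% of all tested genes were called (19.3% higher and 18.8% lower). By subunit, 4 of 48 Rpl genes and 9 of 31 Rps genes were called, and the difference between subunits was not tested. Of the 125 transcripts, 3 were called, all higher before B, where 9.13% of all tested transcripts were called. The median log2 fold change was 0.251 over the 79 genes and 0.02 over all tested genes, and 76 of the 79 were above 0. Without VLDLR_KO replicate 2 the median was 0.072, with 9 genes higher and 4 lower (Rpl10a, Rps2 and Rpsa among them), and without WT replicate 5 as well it was 0.019, with 7 higher and 5 lower. The count was 6 without WT replicate 2 or 5 or VLDLR_KO replicate 3, 4 or 5, and 23 without VLDLR_KO replicate 1, a fit that leaves replicate 2 as the only VLDLR_KO library of its form. The shares of all tested genes called in these changed fits are not given here. Their counts therefore describe how far the calls moved, and cannot be set against the 38.1% above.

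Rpl10 had the largest difference by form, 0.68 (SE 0.12, edgeR adjusted p = 0.00071), and 0.52 without VLDLR_KO replicate 2 (SE 0.072, adjusted p = 0.00011). Before B it had 1598 and 2587 CPM in VLDLR_KO, 1474 and 1429 CPM in ROBO4_KO and 1529, 1594 and 1977 CPM in WT. After B it had 974, 895 and 1054 CPM in VLDLR_KO, 1147, 1087 and 1066 CPM in ROBO4_KO and 1226 and 1153 CPM in WT. The 2 forms did not overlap over the 15 libraries, as for 2 of the 79 genes and for 11.6% of all tested genes. Rps21, a small-subunit protein, ran from 108 to 336 CPM before B with a median of 125 CPM, and from 90.6 to 122 CPM after B with a median of 100.3 CPM (0.65, SE 0.17, edgeR adjusted p = 0.00862). Rps28 ran from 56.4 to 164 CPM before B and from 42.2 to 61.7 CPM after B (0.58, SE 0.18, adjusted p = 0.0229), and Rps27 from 238 to 568 CPM before B and from 206 to 276 CPM after B (0.52, SE 0.16, adjusted p = 0.0225). These ranges overlapped. Of the 11 called genes with a RefSeq window, 2 (Rps21 and Rps27, shown above) had a pyrimidine start at 1 or more annotated starts. Rps21 also had an annotated start without it, and Rpl10 and Rps28 had no pyrimidine start.

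Whether the genotype effects differed between the forms was tested by an interaction term. For VLDLR_KO over WT, 0 of 79 genes were called by edgeR where 15.2% of all tested genes were (8.24% higher and 6.98% lower). An unadjusted p under 0.05 by edgeR was reached by 10 of the 79 and by 4026 of all 11668 tested genes. By DESeq2, 1 of the 79 was called. The effect was larger before B for 76 of the 79, by a median log2 difference of 0.431 against -0.006 over all tested genes, and by -0.09 without VLDLR_KO replicate 2. Counts of called genes without VLDLR_KO replicate 1 or 2 are left out here, because each of these fits keeps 1 VLDLR_KO library before B. Without WT replicate 5, 2 genes were called by edgeR. The shares of all tested genes called in that fit and by DESeq2 are not given here, so these counts cannot be set against them. For ROBO4_KO over WT, 0 of 79 were called by edgeR and by DESeq2 where 0.403% of all tested genes were called by edgeR (0.394% higher and 0.00857% lower). An unadjusted p under 0.05 by edgeR was reached by 1 of the 79 and by 599 of all 11668 tested genes. There the median difference was -0.232, against -0.01 over all tested genes, and all 79 were below 0; without WT replicate 5 and VLDLR_KO replicate 2 it was -0.138.

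Genes around the ribosome were read from the same fit, as counts beside the 16.8% called over all tested genes in VLDLR_KO against WT. In that comparison 3741 of all 11668 tested genes had an unadjusted p under 0.05 by edgeR, and DESeq2 called 21.9%. The 6 other genes of cytosolic ribosomal proteins (among them Fau, Rack1, Rps3a1 and the relatives Rpl7l1 and Rpl22l1) held 0 called by edgeR and 0 by DESeq2, with 2 at an unadjusted p under 0.05 and a lowest fold change of -0.28 (Rpl22l1). Of 58 genes of ribosome assembly in the nucleolus, 16 were called higher in VLDLR_KO and 1 lower, with a median of 0.271. Nop56, a core protein of the small nucleolar particles that methylate ribosomal RNA, averaged 90.8 ± 25.5 CPM in VLDLR_KO and 54.3 ± 5.52 CPM in WT (0.76, SE 0.18, edgeR adjusted p = 0.0104). Nhp2, of the particles that modify uridines, averaged 52.9 ± 13.6 CPM in VLDLR_KO and 32.0 ± 2.73 CPM in WT (0.69, SE 0.17, adjusted p = 0.0121). Nsa2, a large-subunit assembly factor, was the one called lower, with 159 ± 8.96 CPM in VLDLR_KO and 206 ± 6.94 CPM in WT (-0.37, SE 0.069, adjusted p = 0.00197). Without VLDLR_KO replicate 2 the list had 19 higher and 1 lower, and a median of 0.266. The VLDLR_KO effect on this list differed between the forms: the fold change was called higher before B for 2 genes and lower before B for 12, where 15.2% of all tested genes were called, and the median difference was -0.351. The summed level of the list before B was 3331 and 3756 CPM in VLDLR_KO and 3429, 3565 and 3507 CPM in WT, and after B it was 4383, 3355 and 3812 CPM in VLDLR_KO and 3196 and 3214 CPM in WT. Of the 20 genes of RNA polymerase I and its factors, 0 were called by edgeR and 2 by DESeq2, with 7 at an unadjusted p under 0.05 and a median of 0.254. Without VLDLR_KO replicate 2, 2 were called higher and 3 lower by edgeR, with a median of 0.165.

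The list of translation factors and other genes (among them Tpt1, Vim and Hnrnpa1) whose mRNAs also carry TOP sequences held no gene called higher in VLDLR_KO. Of 34, 4 were called lower, with a median of -0.031; without replicate 2 there were 9 lower. Eif4b, an initiation factor that aids the helicase eIF4A, averaged 353 ± 54.6 CPM in VLDLR_KO and 464 ± 31.8 CPM in WT (-0.44, SE 0.092, edgeR adjusted p = 0.0049). Tpt1, a small protein with a classic TOP mRNA, averaged 1904 ± 334 CPM in VLDLR_KO and 2562 ± 193 CPM in WT (-0.41, SE 0.099, adjusted p = 0.0112). Of 27 TOR and Myc regulators, 1 was called higher (Mlst8, a subunit of the mTOR complexes, 0.35, SE 0.082, adjusted p = 0.00936) and 1 lower (Mxd1, an antagonist of Myc, -1.15, SE 0.17, adjusted p = 0.00036), with 3 higher and 1 lower without replicate 2. Of 15 import factors and chaperones of ribosomal proteins, 2 were called higher, among them Grwd1, a chaperone of Rpl3 (0.51, SE 0.15, adjusted p = 0.0323), and 1 without replicate 2. Of 16 genes of ribosome surveillance, 1 was called higher and 1 lower, and 2 higher and 1 lower without replicate 2.

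Of 14 genes of the p53 response to free ribosomal proteins, Trp53 was called higher (0.45, SE 0.098, edgeR adjusted p = 0.00584), and Mdm2, the ubiquitin ligase that free Rpl5 and Rpl11 bind, was called lower (-0.39, SE 0.093, adjusted p = 0.0111), as was Ccng1, a p53 target (-0.34, SE 0.11, adjusted p = 0.0450). Without replicate 2, 1 was higher and 4 were lower. The summed level of the list was 808 to 939 CPM in VLDLR_KO, and in WT it was 1195 and 1295 CPM in replicates 1 and 2 and 860 to 972 CPM in replicates 3 to 5. The VLDLR_KO effect was called different between forms for 4 of the 14 genes (higher before B for 3 and lower for 1), where 15.2% of all tested genes were called. Rpl5 and Rpl11 themselves had fold changes of 0.029 (SE 0.115) and 0.30 (SE 0.18) and did not pass. Of the 8 tested S6 kinase genes 1 was called higher, Rps6ka4 (0.35, SE 0.093, adjusted p = 0.0174), and 2 without replicate 2. The 78 mitochondrial ribosomal protein genes had 9 called higher and 2 lower, with a median of 0.209. Without replicate 2 there were 4 higher and 2 lower, with a median of 0.074. Without WT replicate 5 as well there were 10 higher and 2 lower, with a median of 0.117. Mrps10 (0.71, SE 0.11, adjusted p = 0.0003) and Mrpl52 (0.85, SE 0.23, adjusted p = 0.0184) had the largest rises, and Mrps14 (-0.39, SE 0.11, adjusted p = 0.0229) and Mrpl9 (-0.28, SE 0.068, adjusted p = 0.0116) the largest falls.

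In ROBO4_KO against WT, 0 of 344 tested genes of all lists were called by edgeR and 8 by DESeq2, 7 of them immediate-early genes, with 22 at an unadjusted p under 0.05. Of all tested genes, 0.643% were called by edgeR and 1.47% by DESeq2, and 715 of 11668 had an unadjusted p under 0.05 by edgeR. Of the 14 macrophage markers, 2 were called higher and 4 lower in VLDLR_KO than in WT, with a median of 0.135, where 16.8% of all tested genes were called. The VLDLR_KO effect was called different between forms for 7 of the 14, where 15.2% of all tested genes were called. Lyz2 was 1.27 higher (SE 0.24, edgeR adjusted p = 0.0021) and C1qa 1.27 higher (SE 0.30, adjusted p = 0.0103), while Itgam and Fcgr1 were 0.82 and 0.78 lower (fold changes of -0.82 and -0.78, adjusted p = 0.0114 and 0.0120). Of 15 immediate-early genes 7 were called lower in VLDLR_KO than in WT, with a median of -1.19 (-1.84 in ROBO4_KO against WT), and their summed level ran from 1047 to 1562 CPM in VLDLR_KO, 1279 to 1789 CPM in ROBO4_KO and 1290 to 5637 CPM in WT. WT replicates 1 and 2 stood apart at 5069 and 5637 CPM, while WT replicates 3 to 5 had 1306, 1290 and 1305 CPM. The VLDLR_KO effect was called different between forms for 10 of the 15 genes (median difference 2.94), where 15.2% of all tested genes were called. Between the forms, 15 of 16 cell division genes were called lower before B with a median of -2.09, and all 6 tested neutrophil genes were called lower, where 18.8% of all tested genes were. The part of cell state and culture make-up in the ribosomal protein values was not tested.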

How the data were processed

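RNA of 15 macrophage libraries was extracted with TRIzol, prepared with a SMARTER mRNA-Seq kit and sequenced on a BGISEQ-500 in read pairs, per the labels' protocols. HISAT, Bowtie2 and the build GRCm38.p6 are named in the submitters' processing notes; the quantifier is not given in the sources used here. The estimated counts per gene and per transcript are the authors' deposited values (92.6% of gene counts were whole within 1e-09), and were rounded for the tests. The FPKM values were deposited by the authors under a header with no unit, and were taken as FPKM because their ratio to the counts followed the library totals. CPM was computed here with edgeR's TMM library sizes.

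Tests used edgeR 4.0.16 (R 4.3.3, limma 3.58.1) quasi-likelihood fits over all 15 libraries with genotype and code form, filterByExpr by genotype at a minimum count of 10 (11668 genes tested), two-sided, with Benjamini-Hochberg adjustment over all tested genes. The fits were tested on simulated data. Interaction fits added genotype by form. Log2 CPM used a pseudocount of 0.5 for descriptions. Copies are genes with the UniProt entry of a ribosomal protein gene in the deposited table, and their counts were summed in an added fit. Alternatives included DESeq2 1.42.0, other size factors, no filter, each library left out and each form alone. Named genes were all called genes (of over 12, the 6 highest and 6 lowest), Rplp0, Rplp1, Rplp2, Rpsa, Rps6, the 3 highest and 3 lowest by FPKM, copies with their parents, and up to 2 rises and 2 falls per list; Rpl4, Rpl5, Rpl7a, Rpl11, Rpl31, Rpl36, Rps20 and the genes called only under an alternative (Rpl10a, Rpl21, Rpl24 and Rps2 among them) were chosen after their values were seen. The ribosomal protein genes and all lists were chosen with earlier results of these data known. Some genes are counted but not reported here by name. Another deposited gene table with the same values was not used. No pair of replicates agreed within counting noise (chi-square per degree of freedom of 5.705 to 246.1). Code digits did not pair the libraries, as the closing section shows.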

Additional observations from a re-analysis of the deposited data

Results flagged for a closer look

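For 27 of the ribosomal protein genes and for their share of counts, each group of 5 libraries was checked for 1 library whose gap to its nearest neighbour exceeded 0.71 of the group's whole range. Chance alone gives about 1 such group in 20, and 27 of 84 groups had such a library. The groups share the same 15 libraries and are not independent, so that count cannot be set against the chance rate. Of these, 22 were single genes in VLDLR_KO replicate 2, where the library was the highest of the 5, and its share of counts, 5.35%, stood apart as well.

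In VLDLR_KO replicate 2, the large-subunit genes that stood apart were Rpl7 at 1001 CPM, Rpl13a at 1063 CPM, Rpl22 at 297.5 CPM, Rpl23 at 854.2 CPM, Rpl26 at 1022 CPM and Rpl29 at 778.6 CPM. So were Rpl36a at 327.7 CPM, its retrocopy Rpl36al at 177.8 CPM, Rpl37rt at 17.32 CPM and Rpl39 at 191.3 CPM, and the stalk genes Rplp0 at 1797 CPM, Rplp1 at 1412 CPM and Rplp2 at 478.2 CPM. The small-subunit genes were Rps4x at 1644 CPM, Rps6 at 10.15 CPM, Rps7 at 843.5 CPM, Rps9 at 968.7 CPM and Rps15a at 415.9 CPM. The others were Rps21 at 335.6 CPM, Rps24 at 1352 CPM, Rps25 at 443.1 CPM and Rps28 at 163.6 CPM.

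In WT replicate 5, Rpl7 at 759.9 CPM and Rps27 at 382.6 CPM stood above the other 4 WT libraries. In ROBO4_KO replicate 2, Rps28 at 67.69 CPM was the highest and Rps6 at 35.01 CPM the lowest of the 5 libraries.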

How the results depend on the processing

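Of the single fold changes recomputed, 2490 stayed on their side of the threshold with no called value turning, 86 calls were lost and 24 were gained in the same direction. The log2 fold change of Rps9 in VLDLR_KO against WT turned to -0.257 without VLDLR_KO replicate 2 (edgeR adjusted p = 0.0467), and without other libraries it reached 0.108. The calls of Rpl10, Rps21, Rps25 and Rps28 between forms held in all alternatives run (that of Rps27 in all but the one without VLDLR_KO replicate 2 and WT replicate 5 together), as did that of Rpl29 in VLDLR_KO against ROBO4_KO, while Rps6 in both comparisons and Rpl29 in ROBO4_KO against WT lost theirs with copies summed and in no other alternative. Leaving out each library in turn gave 2 to 10 called ribosomal protein genes for VLDLR_KO against WT and 1 to 2 for ROBO4_KO against WT. It gave 2 to 6 for VLDLR_KO against ROBO4_KO, 6 to 23 between forms and 0 to 76 for the VLDLR_KO effect differing between forms. The 23 and the 76 came from the fit without VLDLR_KO replicate 1, which leaves replicate 2 as the only VLDLR_KO library before B. In that fit the spread within this group cannot be measured, so no conclusion on the interaction is drawn from the 76. For VLDLR_KO against WT there were 1 with only the digit before B, 5 with only the digit after B and, chosen after seeing the data, 1 with copies summed and 9 without VLDLR_KO replicate 2 and WT replicate 5 together. Of all tested genes, 20.5, 15.7, 16.8 and 17% were called in these fits, in this order. For ROBO4_KO against WT, summing copies left 0 of 77 by edgeR (0 at an unadjusted p under 0.05), and leaving out that pair of libraries gave 2. For VLDLR_KO against ROBO4_KO there were 7 by DESeq2, 2 without the form term, 2 with only the digit before B, 2 with copies summed and 10 without the pair. Between forms there were 28 with library totals alone and 21 by DESeq2. For the interaction of VLDLR_KO and form there was 1 with no filter and 1 by DESeq2. For comparisons other than VLDLR_KO against WT, the shares of all tested genes called in these fits are not given here. A higher count there can also follow more calls over all genes. The cause of these changes was not tested.

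A replicate block by code digit in place of the form gave 3 calls for VLDLR_KO against WT, 1 for ROBO4_KO against WT and 3 for VLDLR_KO against ROBO4_KO, where the calls of Rpl36al and Rpl13a were lost and Rpl22 was called lower. Libraries that share a digit and form did not deviate together: 12 such pairs had correlations of -0.532 to 0.411, with 4 over 0.1, so the digits were not taken as pairs. Depth limits the 3 genes too low to test and the counts of Vldlr and Robo4.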
